A study of Mus musculus with 2 samples.

Results

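The 5 genes described here, Thra, Nr4a3, Runx1t1, Rere and Zfp384, encode transcription regulators and have a listed Mov10 peak in neonatal mouse brain. Their peaks were taken as every peak of the deposited list that shared at least 1 base with an exon of one of these genes, on the strand opposite the strand given for the peak, at any adjusted p. This gave 6 of the 2296 listed peaks, and 6 of the 657 that lie in this way over an exon of a protein-coding gene. The genes were chosen on these same read counts, so the values below describe them and no test is run on them.

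The study immunoprecipitated Mov10, an RNA helicase, from brains of 28 WT C57bl/6 pups at postnatal day 2 (P2) and sequenced the RNA that came with it. RNA immunoprecipitation (RIP) was set against total input RNA of the same tissue, with no allele or agent in either group. Each group is 1 library of pooled whole brains, so there is no replicate, no sex or animal can be told apart, and every cell type of the brain is mixed. A ratio here is the share of aligned IP reads that fell in a peak divided by the share of aligned input reads, and its 95% interval is an exact binomial one that covers counting error between these libraries only.

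Nuclear receptors are transcription factors that regulate the genes they sit on, and many of them bind a small lipophilic hormone. Without hormone, the thyroid hormone receptors hold corepressor complexes with histone deacetylases on their targets, and with hormone they exchange them for coactivators. In the neonatal rodent brain thyroid hormone times the maturation of neurons and of myelinating glia. Thra encodes the thyroid hormone receptor alpha, the main thyroid hormone receptor of brain. Nr4a3 encodes an orphan receptor of the NR4A family, which is transcribed within minutes of neuronal activity as an immediate early gene. Runx1t1, also called ETO or MTG8, and Rere, also called atrophin 2, encode corepressors that bind histone deacetylase complexes and no hormone. Zfp384 encodes a C2H2 zinc finger protein that binds DNA through its fingers and carries a glutamine-rich end.

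The sequences under 5 of the peaks are shown because they carry what distinguishes the members from each other, the place of each peak in its mRNA and the codons it holds. All are in the sense of the mRNA, 5′ to 3′, on the plus strand of mm10, from GENCODE M21 transcripts. For Thra the capitals mark the coding bases, and the lower case is intron for the coding transcripts but exon of the noncoding transcript Thra-206, at chr11:98753601-98753777.
Thra: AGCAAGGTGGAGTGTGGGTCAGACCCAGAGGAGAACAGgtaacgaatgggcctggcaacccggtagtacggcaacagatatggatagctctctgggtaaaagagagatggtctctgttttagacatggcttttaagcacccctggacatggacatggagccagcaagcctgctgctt
For Nr4a3, Rere and Zfp384 the capitals mark codons in the reading frame that begin with CA, a codon cut by the edge of the peak included. CAG and CAA encode glutamine, and CAC and CAT encode histidine. The stretches are chr4:48051386-48051590 for Nr4a3, chr4:150614936-150615140 for Rere, and chr6:125030801-125031000 and chr6:125036401-125036600 for the first and second peak of Zfp384.
Nr4a3: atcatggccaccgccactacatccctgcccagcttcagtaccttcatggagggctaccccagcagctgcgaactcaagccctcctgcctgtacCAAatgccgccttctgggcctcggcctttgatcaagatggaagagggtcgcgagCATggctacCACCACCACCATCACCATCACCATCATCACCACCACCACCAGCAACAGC
Rere: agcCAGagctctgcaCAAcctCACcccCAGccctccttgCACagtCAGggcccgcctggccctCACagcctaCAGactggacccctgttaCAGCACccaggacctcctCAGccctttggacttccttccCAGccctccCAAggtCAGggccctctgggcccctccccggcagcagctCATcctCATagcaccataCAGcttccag
Zfp384 peak 1: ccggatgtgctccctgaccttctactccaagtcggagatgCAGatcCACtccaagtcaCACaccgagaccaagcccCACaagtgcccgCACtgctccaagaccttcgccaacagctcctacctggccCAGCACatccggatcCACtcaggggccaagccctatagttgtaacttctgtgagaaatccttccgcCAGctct
Zfp384 peak 2: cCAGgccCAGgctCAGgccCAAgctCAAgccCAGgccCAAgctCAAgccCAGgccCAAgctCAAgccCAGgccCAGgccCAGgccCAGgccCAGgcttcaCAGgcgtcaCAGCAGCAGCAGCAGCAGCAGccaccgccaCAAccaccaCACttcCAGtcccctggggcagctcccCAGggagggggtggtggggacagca

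The peak of Thra (ENSMUSG00000058756.13) held the most reads of the members, 2643 in the Mov10 IP and 91 in the input, in the 200 bases at chr11:98753601-98753800. Per 1000 bases of peak and 1000000 aligned reads this was 185 in the IP and 7.63 in the input, a ratio of 24.2 (95% interval 19.6 to 30.2). In a pool of whole brains fewer cells of a type and less RNA per cell cannot be told apart. The peak starts 15 bases after the first base of the start codon, covers the last 38 bases of exon 2 of Thra-201, and then runs past the splice donor. Those 38 bases are the coding part of the sequence printed in capitals above. Transcript Thra-206, a noncoding isoform in which exon 2 is longer, covers 177 of the 200 bases. The counts are given per peak, so reads from spliced mRNA and reads from RNA that keeps the intron cannot be told apart.

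Nr4a3 (ENSMUSG00000028341.9) had 1804 IP reads and 78 input reads at chr4:48051386-48051590. The ratio was 19.3 (15.4 to 24.5). All 205 bases lie in exon 3 of Nr4a3-201 and are coding, with 138 coding bases before them. The peak is thus in the part that encodes the amino-terminal region, ahead of the DNA-binding and ligand-binding domains typical of a nuclear receptor.

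Of the corepressors, Runx1t1 (ENSMUSG00000006586.15) had 1729 IP reads and 160 input reads at chr4:13846726-13846930. Its ratio of 9.01 (7.66 to 10.7) was the lowest among the members, and its input count was the highest. The last 155 bases of the peak are coding and lie in exon 6 of Runx1t1-204, which starts at base 13846776 of the chromosome, and the bases before it are intronic. Rere (ENSMUSG00000039852.17) had 1604 IP reads and 89 input reads at chr4:150614936-150615140, a ratio of 15.0 (12.1 to 18.8). This peak is coding throughout, in exon 18 of Rere-202, and begins 53% of the way into a coding sequence of 4674 bases.

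Zfp384 (ENSMUSG00000038346.18) was the member with 2 peaks. The first, at chr6:125030801-125031000, held 608 IP reads and 1 input read. The second, at chr6:125036401-125036600, held 605 IP reads and 32 input reads. The IP counts of the peaks were thus almost alike while the input counts were not. With a single input read the first ratio is known only to lie between 90.6 and 20051, with a value of 507. The second ratio was 15.8 (11 to 23.3), and the intervals do not overlap. Both peaks are coding over all 200 bases, the first in exon 7 of Zfp384-207, over the zinc finger region, and the second in exon 11, the last, 122 coding bases before the stop codon. In the mRNA 538 bases lie between them.

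The first Zfp384 peak has a copy elsewhere in the genome. Its 200 bases match the processed pseudogene Gm11405 (chr4:74228197-74229752, plus strand) at 100% identity, and no peak was listed over that pseudogene. The caller gave reads with several alignments a single place, so reads from the gene and from the copy cannot be told apart in this peak, in either library. The other 5 member sequences had no match of at least 95% identity over at least 100 bases in another gene's transcript. Among all 597 peaks over coding genes' exons with at least 100 exonic bases, 101 (16.9%) had such a match. Of the 6 peaks over coding genes' exons with 1 or no input read, 4 were long enough to be searched, and 3 of those had one. The part of the copy in the low input count was not tested.

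**Figure D1:**
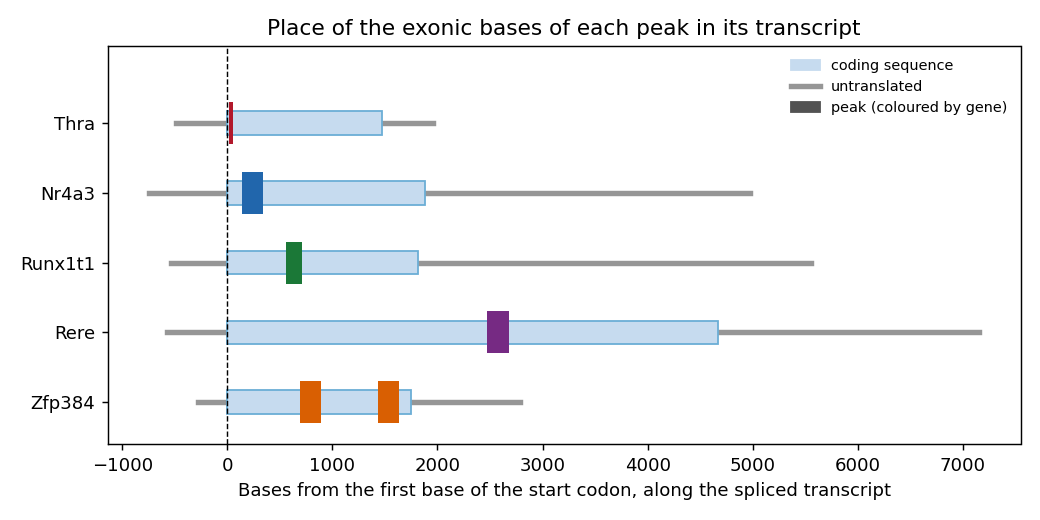
The plot shows the exonic bases of each peak along its transcript, in bases from the first base of the start codon, with the coding sequence in light blue and the untranslated parts as a grey line. The exonic bases drawn sit inside the coding sequence in all 6 peaks, from 15 coding bases after the start in Thra to 122 bases before the stop codon in the second Zfp384 peak.

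All 6 peaks touch coding sequence, and in 5 of them most bases are coding. The same held for 316 (48.1%) of the 657 peaks over coding genes' exons, while 477 (72.6%) had any coding base. No member had a listed peak in a 3′ untranslated region, which is longer than the coding sequence in Nr4a3 and Runx1t1. Measured from the start codon, the peaks began 1.02% of the way into the coding sequence in Thra, 7.34% in Nr4a3, 30.8% in Runx1t1 and 53% in Rere, and 39.5% and 81.6% in Zfp384. They have no common place in the mRNA. No other peak was listed within 5000 bases of any of the 5 genes, on either strand.

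**Figure D2:**
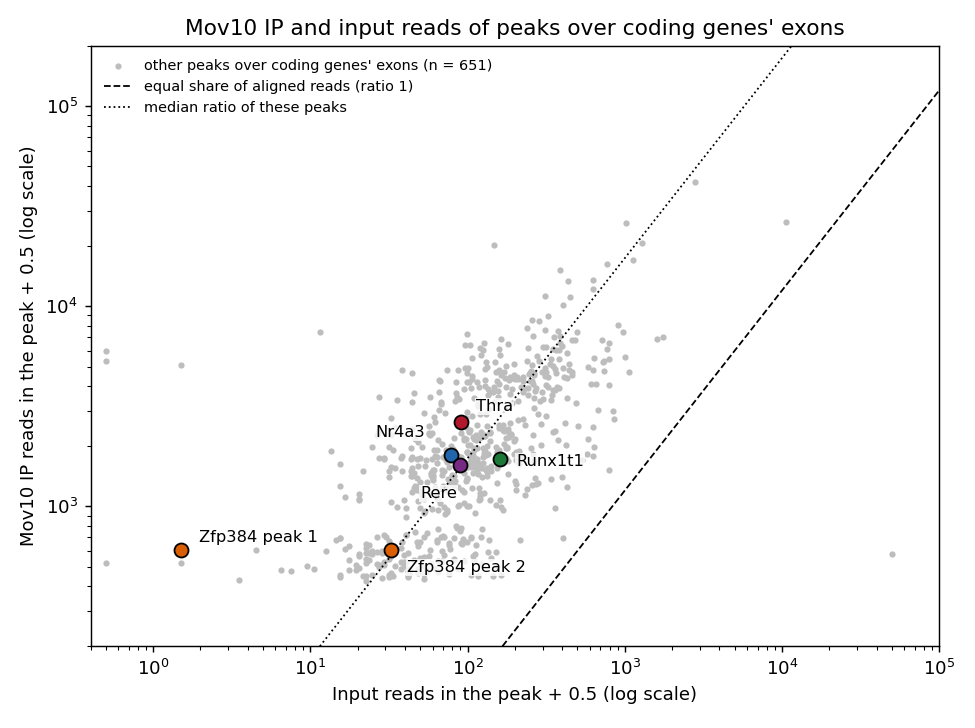
Each point is a peak over an exon of a protein-coding gene, with input reads on the x axis and Mov10 IP reads on the y axis, both plus 0.5 on log scales, and the dashed line marks an equal share of aligned reads. The member peaks lie among the other 651, except the first Zfp384 peak, which has 1 input read.

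Ordered by ratio, the members ran from the first Zfp384 peak through Thra, Nr4a3, the second Zfp384 peak and Rere to Runx1t1. Below the first Zfp384 peak, whose interval lies above all others, the neighbours Thra and Nr4a3, Nr4a3 and the second Zfp384 peak, and that peak and Rere had overlapping intervals. The interval of Runx1t1 lay below those of the other 5 peaks, and that of Thra lay above those of Rere and Runx1t1. The median ratio of the 6 peaks was 17.3 with 0.5 added to each count, beside 14.5 over the 657 peaks, whose quartiles were 9.07 and 22.5. By the same ratio the first Zfp384 peak ranked 6 of 657 and Thra 141, while Nr4a3 ranked 228, the second Zfp384 peak 296, Rere 314 and Runx1t1 497. By IP reads the order was a different one, with Thra at 212 and the peaks of Zfp384 at 561 and 563.

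**Figure D3:**
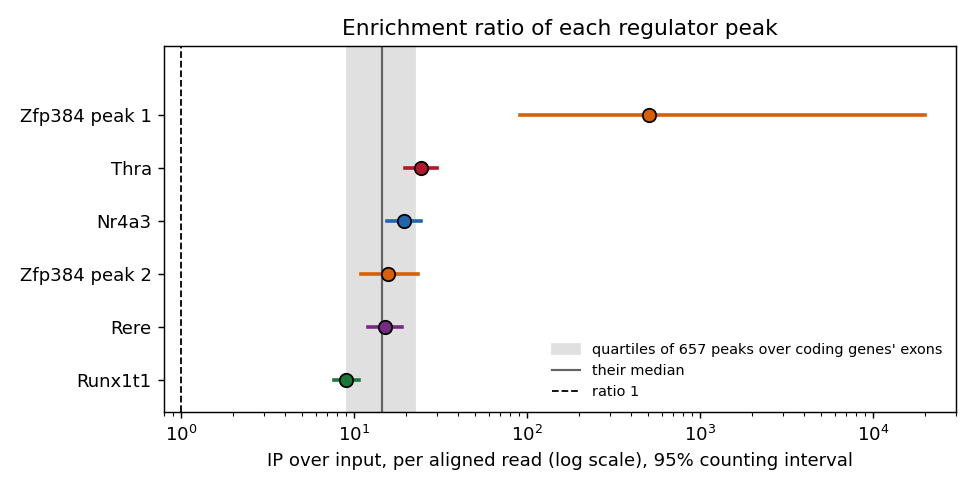
Points are the IP over input ratio of each member peak per aligned read, on a log scale, with bars for the 95% counting interval, and the grey band spans the quartiles of all 657 peaks. Runx1t1 sits at the lower edge of the band, Thra just above its upper edge, and the interval of the first Zfp384 peak reaches from 90.6 to 20051.

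The interval lay above 1 for all 6 peaks, which was so for 99.8% of peaks over coding genes' exons. By the caller's adjusted p of at most 0.05, 5 of the 6 member peaks passed, beside 89.8% of the 657 and 43.4% of all listed peaks. Since the genes were chosen from this list, nothing is read from these shares. The adjusted p was 0 for Nr4a3, Runx1t1 and Rere, 5.96e-157 for the first Zfp384 peak and 8.88e-153 for the second. The peak that did not pass was that of Thra, with an adjusted p of 1 and a p of 0.99988.

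Thra's call was shared by every peak on its strand of the chromosome. None of the 14 peaks listed on the minus strand of chromosome 11 passed, and all 48 on the plus strand did. All 14 had an interval above 1, with a median ratio of 13.0, and Thra had the highest ratio of them. On the plus strand the median was 18.5. The pattern held beyond chromosome 11: of the 32 strands of chromosomes with any peak, every peak passed on 25, none on 4 and some on 3. The 67 peaks over coding genes' exons that did not pass had a median ratio of 14.7, beside 14.4 for those that did. For Thra the adjusted p and the reads therefore give different answers, and the cause was not tested.

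**Figure D4:**
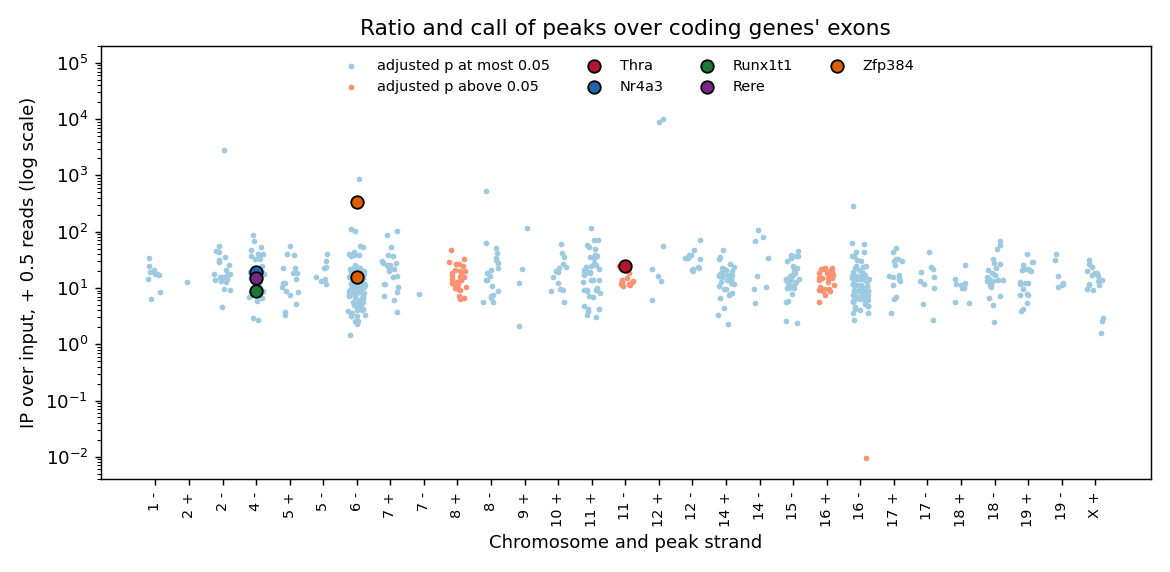
Each point is the ratio of a peak over a coding gene's exon, with 0.5 added to each count and on a log scale, by chromosome and peak strand, coloured by the caller's adjusted p. The points in red, those that did not pass, fill whole strands at ratios like those of their neighbours, apart from 1 on 16 minus at a ratio under 1, and Thra stands at the top of the 11 minus column.

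The empirical false discovery rate (eFDR) of the caller also went by strand. It was at most 0.05 for 2 of the 6 member peaks, both of Zfp384, and for 37.7% of the 657. Nr4a3, Runx1t1 and Rere shared the value 0.0682, as did all 44 peaks on the minus strand of chromosome 4, while all 139 on the minus strand of chromosome 6 were at most 0.05. Thra had 0.99988. The fewest IP reads of any listed peak differed between strands too, with 2192 on the minus strand of chromosome 11, 1406 on that of chromosome 4 and 425 on that of chromosome 6. Within its own strand Thra ranked 6 of 14 by IP reads, Nr4a3 17, Runx1t1 22 and Rere 31 of 44, and the Zfp384 peaks 70 and 73 of 139. The 608 reads of Zfp384 would have been under the lowest listed count on either of the other strands. IP counts of members on different chromosomes were thus listed over different floors.

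Codons and sequence measures were described for the peaks of Nr4a3, Rere and Zfp384 alone, so the counts that follow are not over all members. In 3 of the 4 peaks of Nr4a3, Rere and Zfp384, each with at least 30 whole codons, no fewer than 25% of the codons begin with CA, which was seen in 11 (3.06%) of the 360 such peaks over coding sequence. This feature was picked after the sequences had been read, and its limit is the share of Rere. It came to 28 of 66 codons (42.4%) in the second Zfp384 peak, 18 of 68 (26.5%) in Nr4a3 and 17 of 68 (25%) in Rere. The first Zfp384 peak had 9 of 66 (13.6%). The median over the 360 peaks was 6.5% and the third quartile 10.5%, and these 4 lay above it.

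The codons differ between the genes. In Nr4a3, 14 of the 18 are histidine codons, and 16 CA codons follow each other without a break, the longest such run in any of the 360 peaks. In the second Zfp384 peak 20 of the 28 are CAG. CAG and CAA codons alternate there with alanine codons (GCC or GCT), ahead of a run of 7 CAG codons. In Rere the 17 are spread out, with no more than 2 in a row, among proline, glycine and serine codons. In the first Zfp384 peak 6 of the 9 are histidine codons, among them those of the paired histidines with which a C2H2 zinc finger holds its zinc ion.

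**Figure D5:**
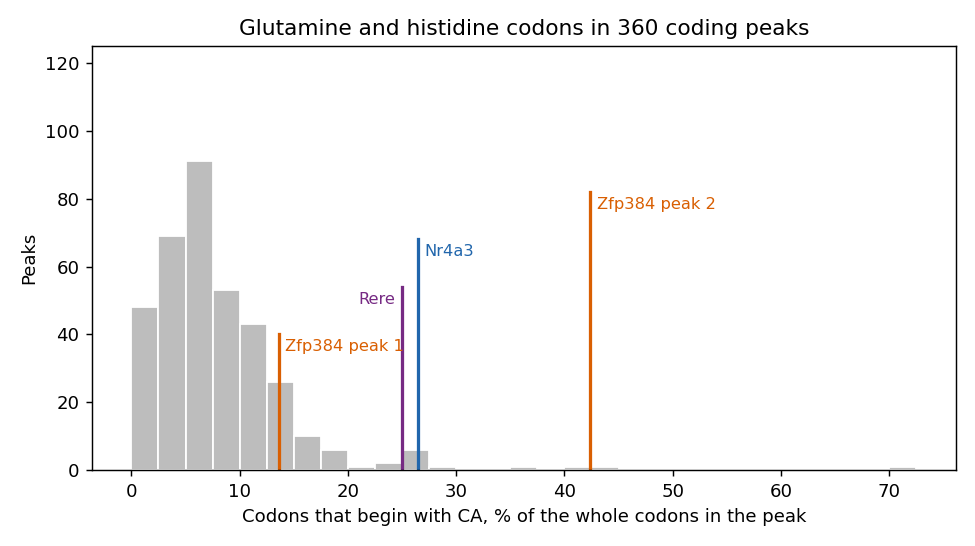
The histogram counts the 360 peaks with at least 30 whole codons by the share of their codons that begin with CA, and the vertical lines mark the peaks of Nr4a3, Rere and Zfp384. The second Zfp384 peak (42.4%), Nr4a3 (26.5%) and Rere (25%) lie in the sparse right tail, above the median of 6.5%.

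Compared with its own mRNA, the peak was richer in these codons than the rest of the coding sequence in Nr4a3 (26.5% against 6.26%), Rere (25% against 9.26%) and the second Zfp384 peak (42.4% against 12.5%). In the first Zfp384 peak the share was below that of the rest, 13.6% against 16.2%. Some windows of the same length in the coding sequence held more CA codons than the peak. These were 52 of the 560 in Nr4a3, 23 of 1491 in Rere and 19 of 519 for the second Zfp384 peak. The richest window held 29.4% in Nr4a3, 29.4% in Rere and 47% in Zfp384. These windows overlap each other and are no independent sample. They can also overlap the peak, so they do not show that the richest stretch lies outside it. In Nr4a3 the run of CA codons reaches the last base of the peak. The median share over the 277 whole coding sequences under such peaks was 6.87%, and those of Nr4a3 (8.45%), Rere (9.95%) and Zfp384 (15.9%) lay above it.

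The variety of short words was measured as the share of distinct 6-base words, with no adjustment for length. This share was below the median of 93.7% in these 4 peaks. It was 56.4% in the second Zfp384 peak, where only 5 of 597 peaks had less. In Nr4a3 it was 83.5% (59 peaks had less), in Rere 87.5% (114) and in the first Zfp384 peak 90.3% (173). GC content ranged from 57.5% in the first Zfp384 peak to 70.0% in the second, beside a median of 54.0% over the 597 peaks with at least 100 exonic bases. The predicted folding energy per 100 bases was -44.0 kcal/mol in the second Zfp384 peak, with 28 peaks of 597 below it. The other peaks, from -27.0 in Rere to -22.9 in the first Zfp384 peak, were above the median of -27.1. Runs of 3 or more G were found in all 4, and in 84.8% of the 597.

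The other genes around these regulators were read from 7 lists with 191 genes in all. Of these, 15 had an exonic peak and 12 had one with an adjusted p of at most 0.05, beside 1.82% of the 22028 protein-coding genes of the annotation. The lists were made with earlier results of these data known, so nothing is read from that share. Among 48 nuclear receptors the only genes with an exonic peak were Thra and Nr4a3, and only Nr4a3 passed. No peak was listed for Thrb, the second thyroid hormone receptor gene, or for Nr4a1 and Nr4a2, the other members of the NR4A family. An absent peak gives no level, since the list holds only what the caller reported, over a floor that differed between strands. The floors given above are those of the members' own strands. Over all strands the lowest listed IP count ran from 226 on the plus strand of chromosome Y to 20339 on that of chromosome 9.

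Among the 23 corepressors and coactivators of the list, which does not hold every such gene, only Crebbp had an exonic peak. Crebbp is a histone acetyltransferase that coactivates nuclear receptors. Of its 6 peaks the one with the most IP reads held 2224 IP and 109 input reads, a ratio of 17.0 (14 to 20.8). The ratios of the 6 ran from 7.62 to 22.9, and none of them passed. They lie on the plus strand of chromosome 16, where none of 27 peaks passed. Among 14 genes of the ETO, atrophin, Runx and E protein families the genes with a peak were Runx1t1 and Rere, and both passed, with a median ratio of 12 beside 14.5 over all coding genes with a passing exonic peak.

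Among 14 genes of thyroid hormone transport, deiodination and response, Nrgn was the only one with a peak, and it passed. It encodes neurogranin, a calmodulin-binding protein of dendrites. The peak held 20339 IP and 146 input reads, a ratio of 116 (98.7 to 138). Among 23 immediate early and activity-dependent factors Nr4a3 and Jund passed, with a median ratio of 16.6. Jund, a subunit of the AP-1 factor, had 3861 IP and 229 input reads and a ratio of 14.1 (12.3 to 16.1).

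Of 48 factors of neural development 5 had a peak and 4 passed, with a median ratio of 15.7. Among them, Zeb1 had a ratio of 17.3 (13.9 to 21.8), Zbtb20 14.2 (11.2 to 18.3) and Olig1, a factor of the oligodendrocyte lineage, 11.8 (8.62 to 16.7). Nfix had 3 peaks on the plus strand of chromosome 8, where none of 30 passed. Of 24 C2H2 zinc finger factors 3 passed, Zfp384 and 2 others, with a median ratio of 12.2. Zfp462 had a ratio of 12.3 (10.2 to 15.0) with 1682 IP reads, and Zfp148 had 11.1 (9.27 to 13.5) with 1656. The second Zfp384 peak, at 15.8, overlaps both of these in its interval.

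For each member the peak of another gene with the most similar counts in both libraries was found. Thra, at 2643 IP and 91 input reads, was nearest to Prrt1, at 2749 and 97. Nr4a3 was nearest to Akirin2 with 1784 and 77 reads, Rere to Sept3 with 1598 and 90, and Runx1t1 to Sptbn1 with 1783 and 164. The first Zfp384 peak was nearest to Igsf5 with 522 and 1. The distance was 0.11 or less on the log2 scale for the first 4 genes and 0.22 for Zfp384. The second Zfp384 peak, with fewer IP reads than the first, was not matched. The Igsf5 ratio also rests on 1 input read, with an interval of 77.8 to 17219. A nearest peak always exists and no typical distance is given, so these pairs are a description only.

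The reads in the 6 peaks, 8993 in the IP and 451 in the input, are a small part of the 2341964 and 926150 in all listed peaks. Of 12 markers of neurons 8 had an exonic peak and 7 had a passing one, beside 1.82% of the 22028 protein-coding genes. The peaks of the marker that did not pass lie on the minus strand of chromosome 11, where none passed. No exonic peak was listed for any of 8 markers of blood cells or 6 of liver.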

How the data were processed

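RIP-seq libraries, 1 of Mov10 IP and 1 of input, came from pooled brains of 28 pups at postnatal day 2. Per the study's methods and processing notes, the authors used bcl2fastq 2.17.1.14 and aligned reads with TopHat2 2.1.1 to unmasked mm10, keeping up to 2000 alignments per read. They merged and sorted with samtools 1.3 and novosort 3.02 and called peaks with RIPSeeker 3.3, strand by strand. The deposited list gives raw read counts per peak and the caller's p-value, adjusted p-value and eFDR. Peak ends fall on the caller's bins, so they are no binding sites.

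Counts were divided by the stated aligned reads, 71522027 (IP) and 59620379 (input), since reads in peaks are not the depth. Intervals are exact binomial at 95%, and PCR copies are not independent molecules, so they cover counting error only. Medians and ranks carry a pseudocount of 0.5. With 1 library per group no test was run. Exons and sequences were from GENCODE M21, and all 5 genes matched by symbol. For each peak and gene the transcript with the most coding bases was used. Tools were Python 3.11.15, pandas 2.3.3, scipy 1.17.1, RNAfold 2.7.2 and BLAST+ 2.17.0, and intervals and overlaps were tested on simulated data. Named genes were the members, up to 4 genes per list by IP reads among those past the adjusted p, and the nearest peaks by log2 reads. Genes without a passing peak were named outside this rule: Crebbp and Nfix after their values were seen, and Thrb, Nr4a1 and Nr4a2 for their known relation to the members. The members, lists and thresholds were chosen with earlier results of these data known, and the codon and word measures after reading the sequences. The control immunoprecipitation, made with an irrelevant antibody, was not used here, and some listed genes and 1 sequence are not reported here.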

Additional observations from a re-analysis of the deposited data

How the results depend on the processing

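Of 31 values recomputed under other settings, 23 kept within their limits (1.5 times a count, the counting interval of a ratio), 8 moved and 0 changed direction. With an eFDR of at most 0.05 in place of the adjusted p, member peaks past the threshold went from 5 to 2 and listed genes from 12 to 5. Dividing by uniquely aligned reads multiplied every ratio by 0.613, which cannot change their order. The median of the member peaks went from 17.3 to 10.6. Thra went to 14.8, Nr4a3 to 11.8, Runx1t1 to 5.52, Rere to 9.21 and the second Zfp384 peak to 9.66. Leaving out peaks with under 10 reads in either library, which removes the first Zfp384 peak, gave a median of 15.5, and so did keeping peaks with at least 50% coding bases, a setting chosen after seeing the data. The ratio of the first Zfp384 peak was 338 with a pseudocount of 0.5 and 254 with 1, both inside its interval. The alternative with RefSeq exons only was not run, since no RefSeq exons were used here. That with GENCODE exons only is the analysis reported, so it gives no second value. No paired analysis was possible because each group has 1 library. Without replicates the spread between pools of brains is unknown, and no ratio here can be carried beyond these libraries.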
